A study of Mus musculus with 8 samples.

Results

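Wild-type natural killer (NK) cells were compared between culture and the state in which they left the animal, over every gene with enough counts. The comparison took 4 of the 8 RNA-sequencing libraries of the series, 2 of wild-type cells in vitro and 2 of wild-type cells ex vivo, and 13184 of 27179 genes passed the filter on low counts. All cells came from C57BL/6 mice and were isolated from blood, spleen and bone marrow on DX5 microbeads, which bind CD49b, an integrin of NK cells. The other 4 libraries held CIS-null cells, which lack the cytokine signalling inhibitor encoded by Cish, in the same 2 states. They entered the fit so that all groups shared an estimate of the spread, and they are described only where the culture effect differed from that in wild-type cells. The labels give no medium, cytokine or duration of culture, and they do not say whether the 2 libraries of a group came from separate mice or cultures. P-values therefore measure only the spread between these libraries, which may be technical.

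NK cells are innate lymphocytes that kill target cells by releasing perforin and granzymes from cytotoxic granules and that secrete cytokines such as interferon gamma. In blood and spleen they rest, kept alive by interleukin 15 (IL-15), and they leave the bone marrow as they mature under the transcription factors T-bet and Eomes. IL-2 and IL-15 signal through a shared receptor, the kinases JAK1 and JAK3 and the factor STAT5, and high doses of either are the usual way to grow NK cells in culture. CIS is induced by this pathway and restrains it.

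The wild-type libraries held 23097714 and 24561906 counts ex vivo and 28065268 and 27860061 counts in vitro. Values are given as CPM, a gene's counts relative to the scaled size of its library, and for comparing genes with each other as RPKM, which also divides by gene length. Culture separated the 8 libraries on the first principal component, with 86.9% of the variance. Ribosomal protein genes took 1.83% and 1.79% of counts ex vivo and 3.69% and 3.48% in vitro. Cish, the gene inactivated in CIS-null cells, lay at 9.26 and 9.12 CPM in wild-type and 1.29 and 2.64 CPM in CIS-null libraries ex vivo, and at 219.8 and 202 and 21.2 and 17.2 CPM in vitro. A CPM value is a share of a library, and in bulk RNA fewer cells of a type and less RNA per cell cannot be told apart.

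Transcripts of the sex chromosomes also differed between the states. Xist, the RNA that coats the silenced X chromosome of female cells, stood at 119.6 and 162 CPM ex vivo and 0 and 0.0351 CPM in vitro, and the Y-linked gene Eif2s3y at 34.1 and 21.7 CPM ex vivo and 135 and 122 CPM in vitro. Y-linked transcripts were present in all 4 libraries, while Xist was high in the ex vivo libraries and had 1 count over both in vitro libraries. All 4 tested Y-linked genes rose in vitro, from 1.16 on the log2 scale for Ddx3y to 2.21 for Eif2s3y. Within the wild-type libraries, culture and the sex-linked difference therefore cannot be told apart for single genes. In the CIS-null libraries the sex-linked transcripts moved the other way with culture, and the calls shared with those cells are counted below. Without the X- and Y-linked genes the test called 4108 genes higher and 4028 lower, and of the 429 X-linked genes 116 rose and 145 fell.

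Culture changed most of the measured transcriptome. At an adjusted p under 0.05 in edgeR's quasi-likelihood test, 4229 genes rose in vitro (32.1% of the 13184 tested) and 4166 fell (31.6%), or 63.7% in either direction. At least 2-fold, 1937 rose (14.7%) and 1963 fell (14.9%). Past 4-fold there were 897 higher and 1080 lower, and past 16-fold 274 and 532. The median log2 fold change of all tested genes was -0.0025. Since both in vitro libraries lay above or below both ex vivo libraries for 11534 genes (87.5%), such a separation says little about a single gene. Gene lists are described below by their counts, and a list whose shares lie near 32.1% higher and 31.6% lower does not stand out from all tested genes. The called higher genes were shorter, with a median length of 2107 bases, against 3382 bases for the called lower genes and 2682.5 bases for all tested genes. The part of gene length in these calls was tested in 1 alternative, in which 7452 of the 8395 calls were kept after the trend with length was removed and 4 turned.

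**Figure D1:**
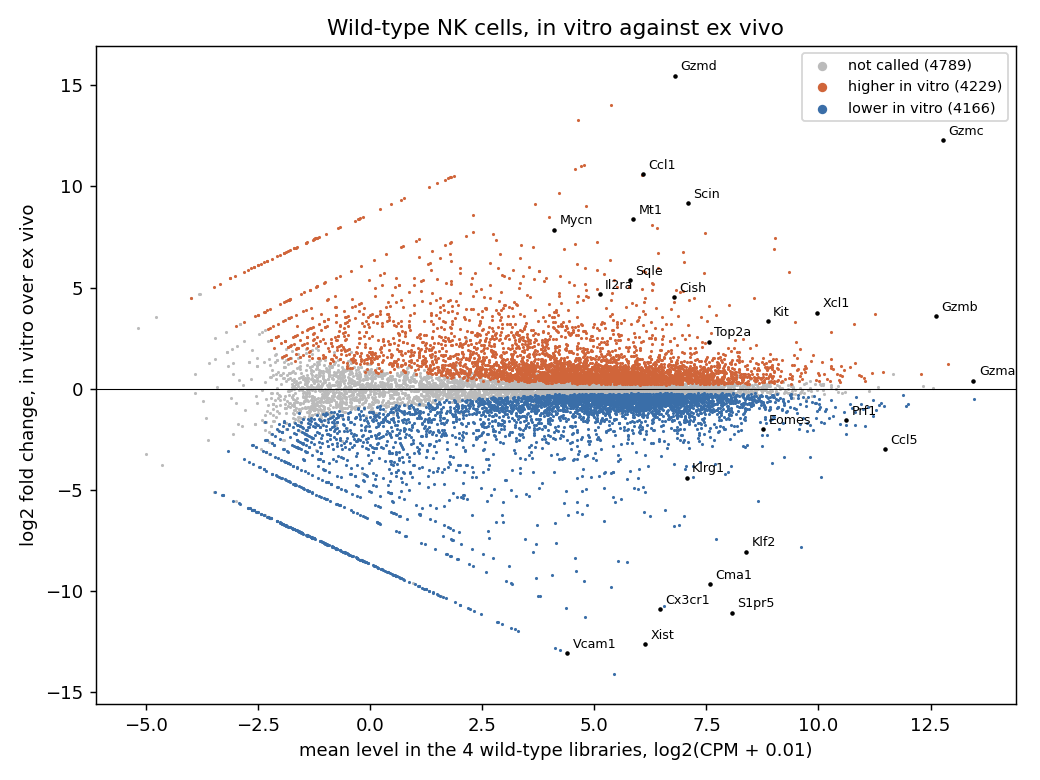
Each point is 1 of 13184 tested genes, with its mean level over the 4 wild-type libraries (horizontal, log2 of CPM plus 0.01) and its log2 fold change in culture (vertical); called genes are coloured and 24 genes are labelled. The calls split almost evenly, with 4229 higher and 4166 lower, and Gzmc lies high on both axes.

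Many markers of other blood cells were present ex vivo and at or near 0 in vitro. Of 22 tested monocyte and macrophage markers 17 fell and 2 rose (fitted median -9.21, or -6.59 with genes at 0 counts in 1 state set to their bound and those at 1 to 3 counts to their ratio), and 9 had 0 counts in vitro, among them Vcam1, C1qc and Emr1 (F4/80). Csf1r, the receptor of macrophage growth factor, lay at 51.7 and 31.2 CPM ex vivo and 0.0348 and 0 CPM in vitro. Of 22 B cell markers 19 fell and 3 did not pass (fitted median -5.73, or -4.97 set likewise), or 12 without wild-type in vitro replicate 2, and 8 had 0 counts in vitro, among them Cd22 (8.92 and 9.67 CPM ex vivo). The immunoglobulin gene Ighm, at 299 to 125 CPM, made up most of the summed B cell markers, which came to 527 and 441 CPM ex vivo and 177 and 125 CPM in vitro. The summed monocyte markers came to 1524 and 1299 CPM ex vivo and 1782 and 1707 CPM in vitro. Ccr2, a chemokine receptor that NK cells also express, made up most of this, with means of 1017 to 1692 CPM.

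Most platelet, erythroid and plasma cell markers fell too. Of 15 platelet and megakaryocyte markers 11 fell and 4 rose, and 7 had 0 counts in vitro, among them Ppbp (3.87 and 2.88 CPM ex vivo). The 4 that rose were Pdgfa (0.104 to 55.8 CPM), Itgb3 (27.1 to 484 CPM), Nrgn (32.6 to 188 CPM) and F2rl2 (41.1 to 132 CPM). Of 10 erythroid markers 6 fell, the haemoglobins among them, and 2 rose, namely Tfrc, the transferrin receptor of dividing cells (8.67 and 8.56 CPM ex vivo, 231 and 255 CPM in vitro, 4.82), and Car2 (238 to 1202 CPM, 2.34). Of 11 plasma cell markers 7 fell and 1 rose, the activation factor gene Irf4. Summed levels were 405 and 228 CPM ex vivo and 86.7 and 92.1 CPM in vitro for the plasma cell list, and 138 and 137 CPM and 809.7 and 912 CPM for the platelet list, where Itgb3 and Nrgn lead. Of 13 basophil and mast cell markers 5 rose and 6 fell, with the receptor gene Fcer1a at 0 counts in vitro and the protease gene Mcpt8 at 0.689 to 13.9 CPM (4.32). Mmp9 was the 1 neutrophil marker of 8 that rose (0.972 to 80.9 CPM, 6.36), beside 6 that fell. Many of these falls are in genes with low counts. With the stricter filter (5 CPM in 2 libraries), 2 platelet, 4 plasma cell and 8 B cell markers fell. No neutrophil or basophil and mast cell marker was called lower with that filter.

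T cell markers did not move as a group. Of 21 tested, 7 rose and 8 fell (median -0.07), and their summed level was 1534 and 1594 CPM ex vivo and 1461 and 1461 CPM in vitro. Cd4 (2.51 to 0.0873 CPM, -4.77) was among those that fell, and the CD3 gamma chain gene Cd3g lay at 12.5 and 15.6 CPM ex vivo and 130.3 and 147 CPM in vitro (log2 change 3.31 with SE 0.203, edgeR adjusted p = 3.91e-06). The number that fell was 5 without wild-type ex vivo replicate 1 and 4 without wild-type ex vivo replicate 2 or wild-type in vitro replicate 2. The part of other cell types in the calls of other genes was not tested beyond this count: when all markers of other cell types were left out, 4042 genes were called higher and 4292 lower.

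**Figure D2:**
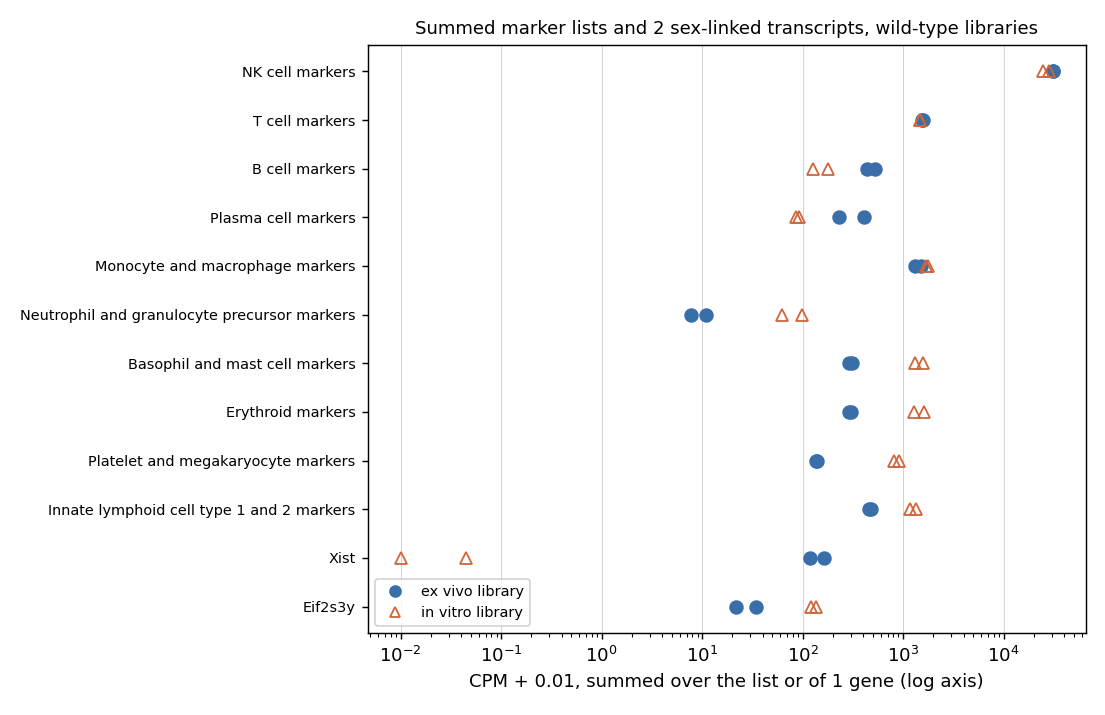
Each symbol is 1 wild-type library (filled circles ex vivo, open triangles in vitro) and gives the CPM summed over 1 of 10 marker lists, or the CPM of Xist or Eif2s3y, on a logarithmic axis after adding 0.01. Both in vitro libraries lie below both ex vivo libraries for the B cell list and for Xist, and above them for Eif2s3y.

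Genes of the cytotoxic granule moved in both directions, and granzymes rose most. Of 25 tested granule proteins and death ligands, 14 rose, 10 fell and 1 did not pass, with a median log2 fold change of 0.28, against 32.1% and 31.6% of all genes. Gzmc, a granzyme of activated lymphocytes, lay at 2.19 and 3.35 CPM ex vivo and 12961 and 15096 CPM in vitro (log2 change 12.30 with SE 0.292, edgeR adjusted p = 5.34e-08). On the RPKM scale it reached 14420.0 and 17287 in vitro, beside 18389.6 and 11588 for Gzma and 7175 and 9498 for Gzmb, so 3 granzymes stood in vitro among the 10 most abundant transcripts per length. Gzmb, the granzyme that cleaves caspases in target cells, lay at 875 and 1034 CPM ex vivo and 11122 and 12008 CPM in vitro (log2 change 3.60 with SE 0.126, edgeR adjusted p = 3.12e-07).

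Neighbouring granzyme genes rose with them. Gzmb, Gzmc, Gzmd, Gzme and Gzmg lie within chr14:56117619-56262334 (GRCm38). Gzmd, Gzme and Gzmg had 0 counts in both ex vivo libraries together, and in vitro 12700, 4723 and 2841 counts. Against a floor of 3 counts over the group, Gzmd was at least 3632-fold higher, Gzme at least 1351-fold and Gzmg at least 812-fold higher. These copies are closely alike in sequence, and the counting settings for shared reads are not given in the sources used here, so the split between them is uncertain.

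Other granule genes fell. Prf1, which encodes the pore-forming perforin, lay at 2332 and 2374 CPM ex vivo and 857 and 749 CPM in vitro (log2 change -1.55 with SE 0.116, edgeR adjusted p = 1.20e-05). Gzmm fell from 22.4 to 2.08 CPM (-3.43), Gzmk from 9.82 to 3.24 CPM (-1.60), and Nkg7, a granule membrane protein, from 2706 to 1373 CPM (-0.98). The death ligand gene Tnfsf10 (TRAIL) rose from 31.4 to 387 CPM (3.62, SE 0.135, adjusted p = 3.78e-07). Gzma was the most abundant transcript per length ex vivo, at 15339.7 and 15339.7 RPKM. Some leading values repeat between the authors' files, so for such genes RPKM need not follow the counts. Gzma lay at 9596 and 9765 CPM ex vivo and 13996 and 11678 CPM in vitro (log2 change 0.41 with SE 0.150, edgeR adjusted p = 0.0405). That call did not hold: edgeR no longer called it without wild-type ex vivo replicate 1 or 2 (adjusted p = 0.143 and 0.129) or wild-type in vitro replicate 1 (adjusted p = 0.289), and on the deposited log2 RPKM the sign turned (-0.0715, limma adjusted p = 0.900).

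Most secreted effectors rose, and Ccl5 fell. Of 14 tested cytokines and chemokines, 10 rose, 3 fell and 1 did not pass (median 1.37). Xcl1, which attracts cross-presenting dendritic cells, lay at 133 and 144 CPM ex vivo and 1828 and 1927 CPM in vitro (log2 change 3.76 with SE 0.113, edgeR adjusted p = 2.18e-07). Ccl5 went the other way, from 5047 and 5124 CPM to 664 and 632 CPM (log2 change -2.97 with SE 0.164, edgeR adjusted p = 2.27e-06). Ccl1 had 4 counts over both ex vivo libraries and reached 132 and 139 CPM in vitro (10.62 on the log2 scale). Tnf rose from 1.07 to 16.7 CPM (3.97), Ltb from 90.2 to 476 CPM (2.40) and Ccl4 from 115 to 415 CPM (1.85). Ifng, chosen after its values were seen, did not pass, at 58.8 and 53.1 CPM ex vivo and 66.2 and 81.7 CPM in vitro (0.40, SE 0.177, adjusted p = 0.0752). It passed as higher in a fit of the 4 wild-type libraries alone (adjusted p = 0.0173) and without CIS-null in vitro replicate 1 or 2 (0.0476 and 0.0472).

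**Figure D3:**
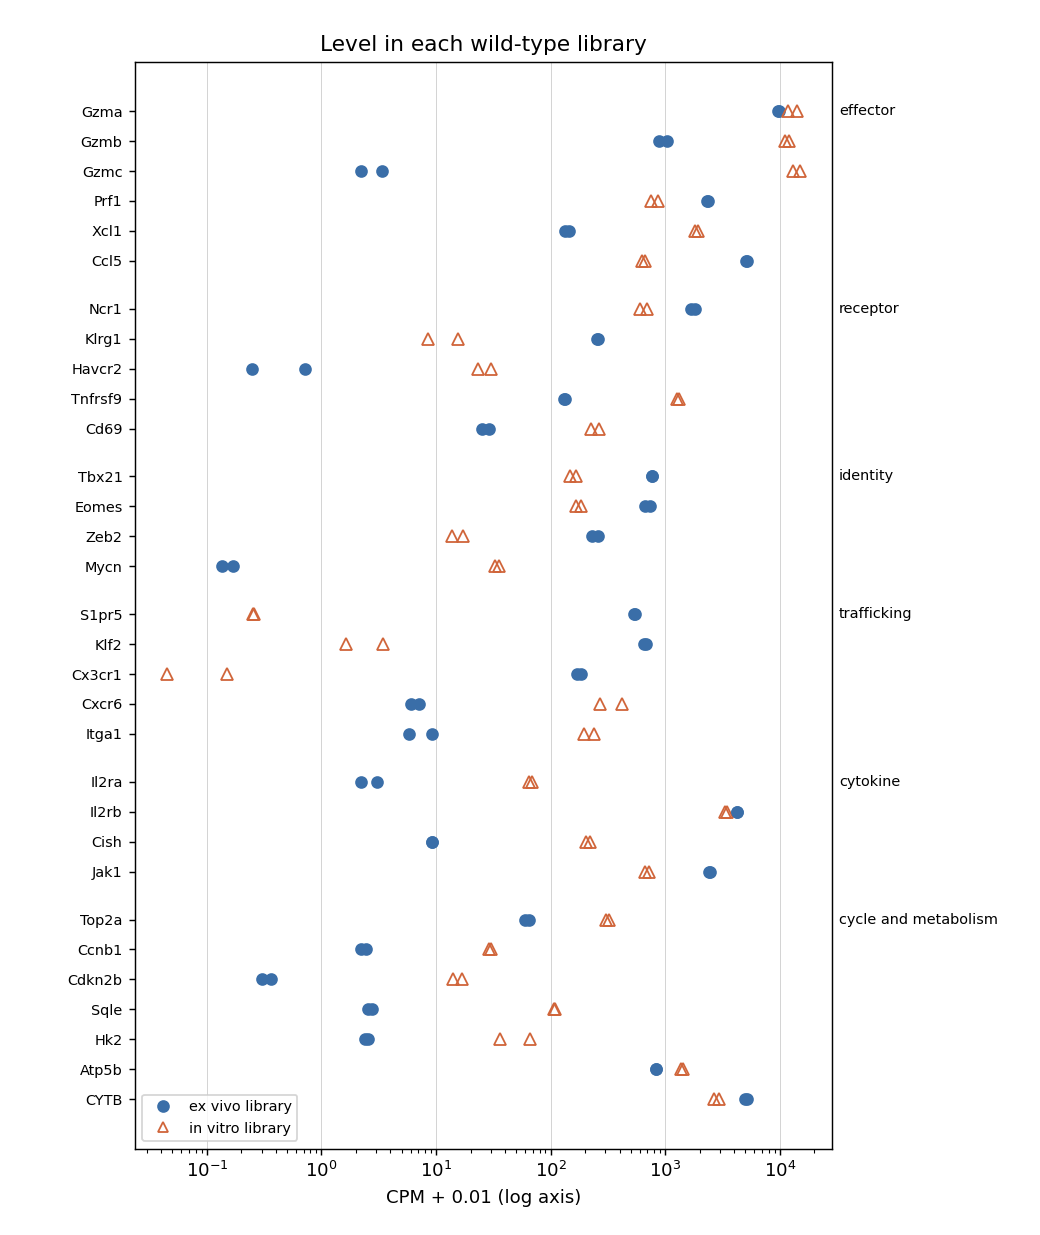
Each symbol is 1 wild-type library (filled circles ex vivo, open triangles in vitro) for 31 genes grouped by role; the horizontal axis is CPM on a logarithmic scale after adding 0.01. S1pr5, Klf2 and Cx3cr1 lie far lower in vitro and Gzmc far higher, while Gzma and Il2rb lie close together in both states.

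Single receptors changed by large amounts. Among 27 tested activating receptors and adaptors 7 rose, 14 fell and 6 did not pass, and among 24 tested inhibitory receptors 8 rose, 10 fell and 6 did not pass, beside 32.1% higher and 31.6% lower among all tested genes. Without wild-type ex vivo replicate 1 only 4 activating receptors rose. Ncr1, which encodes the NK cell marker NKp46, lay at 1689.5 and 1801 CPM ex vivo and 694 and 602 CPM in vitro (log2 change -1.43 with SE 0.115, edgeR adjusted p = 1.71e-05). Klrb1c (NK1.1) and Klrk1 (NKG2D) fell by 1.03 and 1.11 on the log2 scale. Slamf6, a SLAM family receptor, fell from 6.86 and 8.72 CPM to 0.0695 and 0.0351 CPM (edgeR adjusted p = 1.65e-05), a ratio of 149 (counting interval 50.7 to 727) over 3 counts in vitro. Cd69, an early activation marker, rose from 27.1 to 244 CPM (3.17), and Cd160 from 97.2 to 541 CPM (2.48). The signalling adaptor gene Tyrobp (DAP12) had means of 1593 to 1373 CPM and did not pass (-0.21, SE 0.133, adjusted p = 0.187). It passed as lower with the trend with gene length removed (-0.44, adjusted p = 0.00101) and in a fit of the 4 wild-type libraries alone (0.0112).

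On the inhibitory side Klrg1, a receptor of mature NK cells, lay at 253 and 257 CPM ex vivo and 15.6 and 8.43 CPM in vitro (log2 change -4.40 with SE 0.265, edgeR adjusted p = 3.46e-06). Several other inhibitory receptors rose. Havcr2 (TIM-3) rose from 0.715 and 0.237 CPM to 30.3 and 23.2 CPM (log2 change 5.82 with SE 0.311, edgeR adjusted p = 1.96e-06), Lilrb4 from 5.12 to 151 CPM (4.88), Cd96 from 144 to 641 CPM (2.15) and Cd200r1 from 2.51 to 138 CPM (5.78). Klrd1 (CD94), the shared partner of the NKG2 receptors, lay at 752 and 769.6 CPM ex vivo and 816 and 759.98 CPM in vitro, a difference that did not pass (0.05, SE 0.161, adjusted p = 0.797). Over the list of checkpoint receptors and ectonucleotidases 6 of 13 tested genes rose and 2 fell, the latter Btla (104 counts ex vivo and 0 in vitro, at least 40.4-fold lower) and the adenosine receptor gene Adora2a (219.7 to 37.6 CPM, -2.54). Ly49 genes (Klra) have near-identical copies, which makes the split between them uncertain.

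Most transcription factors of the NK lineage fell. Of 24 tested factors, 3 rose, 17 fell and 4 did not pass (median -1.31). Tbx21, which encodes T-bet, lay at 765 and 765 CPM ex vivo and 149 and 165 CPM in vitro (log2 change -2.29 with SE 0.179, edgeR adjusted p = 1.46e-05). Eomes lay at 736 and 662 CPM ex vivo and 183 and 166 CPM in vitro (log2 change -2.003 with SE 0.111, edgeR adjusted p = 2.36e-06). Zeb2, which acts with T-bet in terminal maturation, fell from 244 to 15.5 CPM (-3.98), Ikzf1 (Ikaros) from 1305 to 398 CPM (-1.72) and Ets1 from 1834 to 729 CPM (-1.33). Nfil3, required for NK development, rose from 53.7 to 93.03 CPM (0.79), and Id2 did not pass (1017 to 1183 CPM, 0.22, SE 0.0983, adjusted p = 0.0821).

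Factors of activation mostly rose. Of 29 tested, 18 rose, 5 fell and 6 did not pass (median 0.94), and without wild-type ex vivo replicate 1, wild-type ex vivo replicate 2 or wild-type in vitro replicate 2 the number that fell was 3. Mycn, a Myc family member, lay at 0.126 and 0.158 CPM ex vivo and 32.99 and 35.2 CPM in vitro (log2 change 7.85 with SE 0.212, edgeR adjusted p = 9.86e-08), while Myc rose from 56.1 to 122 CPM (1.12). Irf4 rose from 3.56 to 19.3 CPM (2.44), Egr2 from 10.7 to 60.9 CPM (2.51) and Egr3 from 7.01 to 66.8 CPM (3.25), all factors induced by receptor signalling in lymphocytes. The non-canonical NF-kB subunit genes Nfkb2 (67.4 to 231 CPM, 1.78) and Relb (41.8 to 132 CPM, 1.65) rose as well. Of 19 NF-kB feedback and target genes 13 rose and 1 fell. Of 28 immediate early genes 9 rose and 12 fell, beside 32.1% and 31.6% of all genes, and Fos fell from 78.7 to 4.46 CPM (-4.14).

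Genes of tissue egress and terminal maturation fell by large amounts. S1pr5, the sphingosine 1-phosphate receptor by which NK cells leave the bone marrow, lay at 533 and 539 CPM ex vivo and 0.243 and 0.246 CPM in vitro (log2 change -11.07 with SE 0.245, edgeR adjusted p = 5.19e-08). Klf2, a factor that maintains quiescence and drives the egress receptors, lay at 686 and 649 CPM ex vivo and 3.41 and 1.62 CPM in vitro (log2 change -8.05 with SE 0.281, edgeR adjusted p = 3.12e-07). Cx3cr1, the fractalkine receptor of mature NK cells and monocytes, fell from 169 and 183 CPM to 0.0348 and 0.141 CPM (-10.90, SE 0.708, adjusted p = 5.31e-06). S1pr1, chosen after its values were seen, fell from 217 to 1.97 CPM (-6.78). Across 27 tested trafficking genes 8 rose, 15 fell and 4 did not pass (median -1.29).

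The trafficking genes that rose included receptors and integrins known from tissue-resident lymphocytes. Cxcr6 lay at 6.02 and 7.03 CPM ex vivo and 269 and 417 CPM in vitro (log2 change 5.71 with SE 0.233, edgeR adjusted p = 5.50e-07), and Itga1 (CD49a) at 5.81 and 9.16 and 196 and 240.5 CPM (4.86, SE 0.414, adjusted p = 2.32e-05). Itgb3 rose from 27.1 to 484 CPM (4.16). Among 13 tested markers of innate lymphoid cells (types 1 and 2), to which Cxcr6, Itga1 and Tnfsf10 belong, 8 rose and 3 fell (fitted median 2.97, or 2.19 with the 1 gene at 1 to 3 counts in a state set to its ratio). The members that fell were Il7r (47.9 to 0.976 CPM, -5.61), Klrg1 and Gata3 (82.2 to 33.8 CPM, -1.28). Summed over the list, these markers came to 458 and 485 CPM ex vivo and 1169 and 1353 CPM in vitro. Whether other lymphoid cells contributed was not tested.

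Of 18 tested maturation markers, 5 rose, 11 fell and 2 did not pass (median -1.78). Cma1, a chymase gene expressed by mature NK cells, lay at 387 and 381 CPM ex vivo and 0.626 and 0.316 CPM in vitro (log2 change -9.65 with SE 0.310, edgeR adjusted p = 2.44e-07). Itgam (CD11b) fell from 1096 to 107 CPM (-3.36) and Spn (CD43) from 2187 to 654 CPM (-1.74), 2 surface proteins gained late in maturation. Cd27, high on immature NK cells, fell too, from 117 to 24.5 CPM (-2.26), while Kit, another gene of immature cells, lay at 84.8 and 83.1 CPM ex vivo and 748 and 955 CPM in vitro (log2 change 3.34 with SE 0.178, edgeR adjusted p = 1.96e-06). Itga2, which encodes the CD49b antigen used to enrich the cells, fell from 274 and 277 CPM to 21.2 and 18.2 CPM (log2 change -3.80 with SE 0.154, edgeR adjusted p = 5.38e-07). Of 15 tested NK cell markers 3 rose and 10 fell, and their summed level was 30734 and 30951 CPM ex vivo and 28302 and 24927 CPM in vitro.

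The high-affinity chain of the IL-2 receptor rose, and most JAK and STAT genes fell. Il2ra (CD25), the chain that raises affinity for IL-2, lay at 2.19 and 3.04 CPM ex vivo and 68.9 and 64.99 CPM in vitro (log2 change 4.67 with SE 0.258, edgeR adjusted p = 2.27e-06). Il2rb, the signalling chain shared by IL-2 and IL-15, was far more abundant, at 4229.6 and 4213 CPM ex vivo and 3446 and 3342 CPM in vitro. Its fall (-0.31, SE 0.114, adjusted p = 0.0381) was lost without each of the 4 wild-type libraries in turn (adjusted p = 0.139, 0.138, 0.0718 and 0.149). Il2rg, the common gamma chain, did not pass (767 to 652 CPM, -0.23, SE 0.106, adjusted p = 0.0819), though it did in 5 alternatives, with adjusted p from 0.00971 (length trend removed, -0.40) to 0.0483. Il21r (33.2 to 173 CPM, 2.38) and Il12rb1 (57.4 to 282 CPM, 2.29) rose, and the IL-18 receptor genes Il18r1 (448 to 164 CPM, -1.45) and Il18rap (662 to 236 CPM, -1.49) fell. Among 11 JAK and STAT genes 2 rose and 8 fell, with Jak1 at 2470.5 and 2389 CPM ex vivo and 715 and 672 CPM in vitro (log2 change -1.81 with SE 0.134, edgeR adjusted p = 1.12e-05) and Stat4, the factor of IL-12 signalling, falling from 452 to 197 CPM (-1.20).

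Known STAT5 target genes rose more often than they fell. Of 18 tested targets, 10 rose, 3 fell and 5 did not pass (median 0.70). Cish itself was at 9.26 and 9.12 CPM ex vivo and 219.8 and 202 CPM in vitro (log2 change 4.52 with SE 0.206, edgeR adjusted p = 8.87e-07), and Socs2, another feedback inhibitor of the family, rose from 6.56 to 47.1 CPM (2.84). Socs3 fell from 16.9 to 4.17 CPM (-2.02), as did Osm, the oncostatin M gene (22.996 to 8.27 CPM, -1.47). Bcl2 (197 to 329 CPM, 0.74) and Bcl2l1 (87.1 to 193 CPM, 1.15), which protect from apoptosis, rose. Of 17 SOCS family and cytokine feedback genes 6 rose and 5 fell, near the 32.1% higher and 31.6% lower among all tested genes. The number that fell depended on which wild-type libraries were in the fit.

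The motif TTCNNNGAA, the element bound by STAT5 dimers, was searched on both strands in the 250 bases before each start in the RefSeq promoter table (GRCm38.p6), which held 10007 of the 13184 tested genes. It was not found there for Cish or Il2ra. It was found in 2 of 19 promoters of the STAT5 target list and in 7.02% of all 32851 promoters. The 50 bases after the Cish start hold 2 matches side by side, shown because CIS is the protein that the other cells of the series lack and Cish rose in culture. This stretch was chosen after it had been seen. It lies at chr9:107296659-107296681 on the plus strand, with the matches in capitals.
Cish: TTCCTGGAAagTTCTTGGAAatc
In the same 50 bases, 1.15% of all promoters held at least 1 match and 4 of 32851 (0.0122%) held 2 or more. A match is a description of the letters and not a measured binding site.

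Genes of cell division rose. Of 40 tested G2/M and mitosis genes, 38 rose, 1 fell and 1 did not pass, with a median log2 fold change of 3.01. Top2a, the topoisomerase that untangles chromosomes, had the highest mean CPM of the list, with 59.6 and 64.5 CPM ex vivo and 321 and 304 CPM in vitro (log2 change 2.33 with SE 0.343, edgeR adjusted p = 4.77e-04). Ccna2 lay at 16.8 and 21.1 CPM ex vivo and 177 and 175 CPM in vitro (log2 change 3.21 with SE 0.306, edgeR adjusted p = 4.37e-05), and Ccnb2 at 9.13 and 10.7 and 129.8 and 129 CPM (3.71, SE 0.221, adjusted p = 3.37e-06); both encode mitotic cyclins. The largest change in the list was in Ube2c, the ubiquitin-conjugating enzyme of the anaphase-promoting complex, from 5.93 to 98.8 CPM (4.05). The member that fell was Cdc25b (94.6 to 68.9 CPM, -0.46). Of 42 DNA replication and S phase genes 34 rose, 2 fell and 6 did not pass (median 1.01), led by Rrm2, a subunit of ribonucleotide reductase (20.6 to 188 CPM, 3.19), and Tk1 (5.24 to 44.7 CPM, 3.09). Cdt1, which licenses replication origins, fell (60.7 to 28.4 CPM, -1.09).

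Mki67, the gene of the Ki-67 antigen and chosen after its values were seen, lay at 24.7 and 29.4 CPM ex vivo and 118 and 87.5 CPM in vitro (1.93, SE 0.408, adjusted p = 0.00333). Of 20 replication-dependent histone genes 6 rose, 2 fell and 12 did not pass (median 0.51), beside 32.1% higher and 31.6% lower among all tested genes. With the stricter filter 2 rose, and these genes have near-identical copies. Among cyclins D and E and their kinases 13 of 18 rose and 2 fell, with Cdk4 from 152 to 371 CPM (1.29), Ccnd2 from 796 to 1257 CPM (0.66) and Ccnd3 from 516 to 331 CPM (-0.64). With wild-type ex vivo replicate 1 left out, Ccnd2 did not pass (adjusted p = 0.0618).

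Several inhibitors of the cycle rose as well. Cdkn2a, which encodes the inhibitors p16INK4a and p19ARF, had 2 counts ex vivo and 1451 in vitro, a ratio of 622 (counting interval 172 to 5144). Cdkn2b lay at 0.295 and 0.355 CPM ex vivo and 16.8 and 14.2 CPM in vitro (log2 change 5.55 with SE 0.240, edgeR adjusted p = 7.16e-07). Cdkn1c, linked to stem cell quiescence, and Cdkn1b (p27) fell, from 3.53 to 0.104 CPM (-5.01) and 175 to 97.5 CPM (-0.84). Of 26 tested inhibitors and p53 targets 15 rose and 7 fell, including Bax (49.4 to 139.7 CPM, 1.50) and Ccng1 (228 to 644 CPM, 1.50) among those that rose. The number that fell was 3 without wild-type ex vivo replicate 1, 4 without replicate 2 and 3 without wild-type in vitro replicate 2. Among 30 quiescence genes 18 fell and 5 rose, Klf3 from 234 to 2.18 CPM (-6.74), and without either wild-type ex vivo library or wild-type in vitro replicate 1 the number that rose was 2, or 3 without wild-type in vitro replicate 2.

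Promoters were searched for short motifs known from cell cycle control, and 3 that hold them are printed, from genes that rose in the lists above. The 250 bases before the start are shown 5′ to 3′ on the gene's strand, from the RefSeq table. In Ccnb1 (cyclin B1, chr13:100786487-100786736, minus strand) and Cdc20 (activator of the anaphase-promoting complex, chr4:118437344-118437593, minus strand), capitals mark CCAAT and TTTGAA. These are the CCAAT box of factor NF-Y and the cell cycle genes homology region bound by the DREAM and MuvB complexes. In Mcm5 (replicative helicase, chr8:75109259-75109508, plus strand), capitals mark TTTCGCGC and the reverse complement of TTTGGCGC, 2 forms of the E2F site, which overlap there by 4 bases.
Ccnb1: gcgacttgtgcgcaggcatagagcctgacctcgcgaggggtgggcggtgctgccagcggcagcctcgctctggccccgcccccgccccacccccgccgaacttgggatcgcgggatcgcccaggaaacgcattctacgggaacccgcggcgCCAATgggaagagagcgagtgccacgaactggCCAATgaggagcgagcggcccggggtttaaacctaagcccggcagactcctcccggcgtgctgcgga
Cdc20: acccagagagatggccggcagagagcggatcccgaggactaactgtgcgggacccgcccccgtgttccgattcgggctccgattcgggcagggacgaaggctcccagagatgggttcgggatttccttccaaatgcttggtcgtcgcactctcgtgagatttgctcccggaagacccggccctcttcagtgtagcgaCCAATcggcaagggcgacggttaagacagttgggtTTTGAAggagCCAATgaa
Mcm5: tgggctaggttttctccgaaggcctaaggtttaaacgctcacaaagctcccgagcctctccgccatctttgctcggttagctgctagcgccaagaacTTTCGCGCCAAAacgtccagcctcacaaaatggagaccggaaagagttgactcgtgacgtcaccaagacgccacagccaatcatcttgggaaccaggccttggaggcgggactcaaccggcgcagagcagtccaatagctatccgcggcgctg
Ccnb1 holds 2 CCAAT boxes, 99 and 67 bases before the start, and TTTGAA was not found in its window. Cdc20 holds 2, 53 and 8 bases before it, and TTTGAA 18 bases before it. CCAAT was found on either strand in 27 of 35 promoters of the G2/M list (77.1%), against 33.8% of all 32851 promoters and 35.5% of those of tested genes. TTTGAA was found in 10 of the 35 (28.6%), against 15.99% of all and 11.1% of those of tested genes. TTTCGCGC was found in 6 of 40 promoters of the replication list, against 0.256% of all and 0.528% of those of tested genes. TTTGGCGC was found in 3 of 40, against 0.417% and 0.764%. Neither form was found in the window of Pcna.

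Ccnb1 lay at 2.44 and 2.21 CPM ex vivo and 29.02 and 30.04 CPM in vitro (log2 change 3.67 with SE 0.149, edgeR adjusted p = 5.50e-07). For Cdc20, chosen with Pcna for the promoter search and after values were seen, they were 8.25 and 8.29 and 65.3 and 69.4 CPM (3.03, SE 0.151, adjusted p = 1.40e-06). The change in Mcm5 was smaller, from 122 and 118 CPM to 219.7 and 249 CPM (0.97, SE 0.0975, adjusted p = 5.95e-05). All 3 genes thus rose, the mitotic pair by more than the helicase gene.

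**Figure D4:**
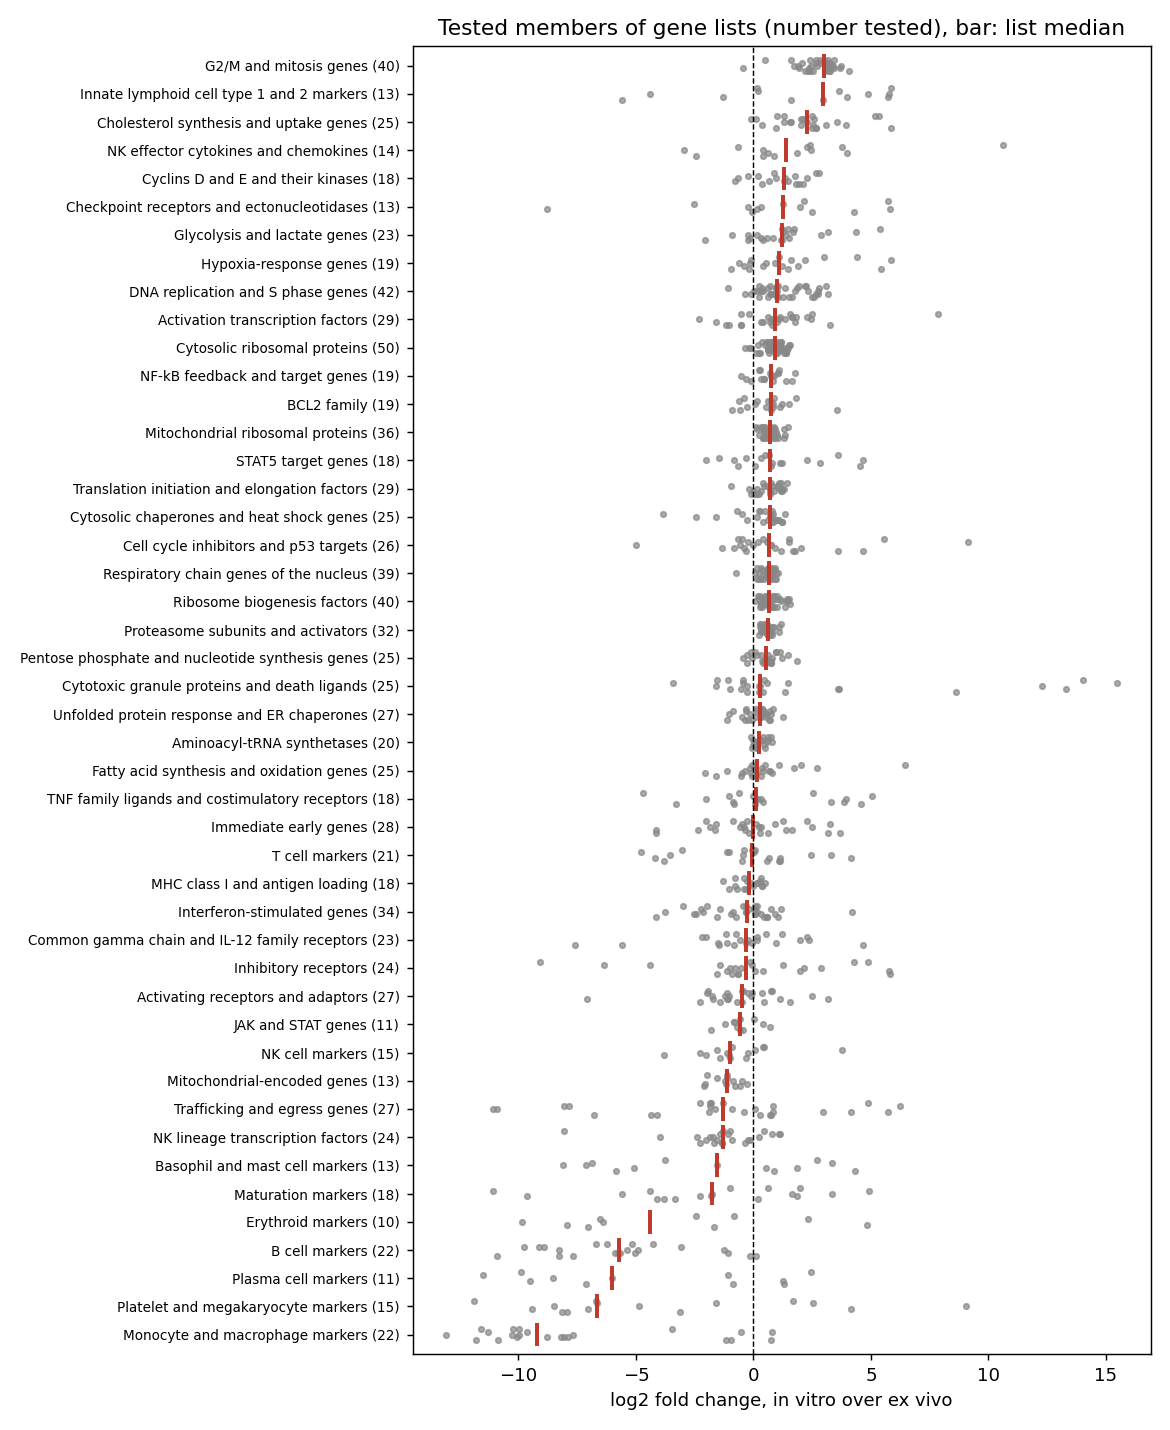
Each grey point is the fitted log2 fold change in culture of 1 tested member of 1 of 46 gene lists, the red bar marks the list's median and the dashed line the median of all tested genes (-0.0025). The medians of the G2/M and cholesterol lists lie above 2, and those of the B cell and monocyte marker lists lie far below 0, at fitted values of -5.73 and -9.21.

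Most genes of the translation machinery rose. Of 50 cytosolic ribosomal protein genes 42 rose and 8 did not pass (median 0.90), of 40 ribosome biogenesis factors 34 rose and 6 did not pass (median 0.67), and of 36 mitochondrial ribosomal proteins 31 rose and 5 did not pass (median 0.70). Rps3 lay at 2027 and 2009 CPM ex vivo and 3659.9 and 3420.0 CPM in vitro (log2 change 0.81 with SE 0.202, edgeR adjusted p = 0.00769). Rplp0 rose from 1037 to 2543 CPM (1.29) and the elongation factor gene Eef1b2 from 619 to 1546 CPM (1.32). Npm1, a chaperone of ribosome assembly, lay at 163 and 157 CPM ex vivo and 438 and 410.02 CPM in vitro (log2 change 1.40 with SE 0.167, edgeR adjusted p = 1.49e-04). Ribosomal protein genes have many processed pseudogenes, so their counts are uncertain. Of 20 aminoacyl-tRNA synthetases 9 rose and 11 did not pass (median 0.25). Eif4a2, an initiation factor, was the 1 translation factor of 29 that fell (193 to 101 CPM, -0.93), beside 19 that rose.

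Every one of the 32 tested proteasome subunits and activators rose, with log2 fold changes from 0.23 to 1.16 (median 0.61). Psma5 rose from 20.1 to 44.9 CPM (1.16, SE 0.130, adjusted p = 1.05e-04) and Psmb8, a subunit of the immunoproteasome, from 377 to 536 CPM (0.51, SE 0.0980, adjusted p = 0.00205). Of 25 cytosolic chaperones 16 rose and 5 fell. The constitutive chaperone gene Hspa8 (264 to 616 CPM, 1.22) rose, as did Cct4 of the chaperonin that folds actin and tubulin (244 to 563 CPM, 1.21). The stress-induced Hspa1b fell (4.14 to 0.280 CPM, -3.86). Leaving out wild-type in vitro replicate 2 left 2 that fell, and leaving out either wild-type ex vivo library left 3.

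In the endoplasmic reticulum, 14 of 27 tested chaperones and unfolded protein response genes rose and 5 fell, or 9 and 3 without wild-type ex vivo replicate 1. Without wild-type ex vivo replicate 2 the number that fell was also 3, and without either CIS-null ex vivo library it was 8. Hspa5 (BiP), the main chaperone of that compartment, lay at 509 and 547 CPM ex vivo and 819 and 845 CPM in vitro (log2 change 0.66 with SE 0.113, edgeR adjusted p = 0.00110). The sensor genes went both ways, Eif2ak3 (PERK) from 36.2 to 86.7 CPM (1.26) and Ern1 (IRE1) from 92.2 to 42.8 CPM (-1.11), and Ddit3 (CHOP), a marker of unresolved stress, fell from 20.8 to 10.2 CPM (-1.03). The Hspa5 promoter (chr2:34771840-34772089, plus strand) is printed because it holds both parts of the ER stress element, with CCAAT or its reverse complement and CCACG in capitals.
Hspa5: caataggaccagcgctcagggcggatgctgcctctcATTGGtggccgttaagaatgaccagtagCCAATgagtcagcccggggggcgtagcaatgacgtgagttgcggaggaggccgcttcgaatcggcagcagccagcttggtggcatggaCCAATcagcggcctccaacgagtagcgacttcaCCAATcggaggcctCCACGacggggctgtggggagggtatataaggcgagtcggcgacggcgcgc
It holds 4 CCAAT boxes (the first on the other strand), 214, 186, 98 and 65 bases before the start, and CCACG 51 bases before it. Over the list CCAAT was found in 19 of 24 promoters (79.2%) and CCACG in 16 of 24 (66.7%), against 33.8% and 28.3% of all promoters and 35.5% and 40.8% of those of tested genes.

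Sterol synthesis rose almost throughout. Of 25 cholesterol synthesis and uptake genes, 23 rose and 2 did not pass (median 2.26). Sqle, squalene epoxidase, lay at 2.52 and 2.72 CPM ex vivo and 108 and 108 CPM in vitro (log2 change 5.36 with SE 0.121, edgeR adjusted p = 5.19e-08). Srebf2, the factor that drives the pathway, rose from 109.8 to 449 CPM (2.03). CCAAT, the site of NF-Y, was found in 16 of 22 promoters of the list (72.7%). Fatty acid genes were mixed, with 12 of 25 higher and 6 lower. The desaturase gene Fads2 rose from 0.220 to 20.1 CPM (6.46), while Cpt1a, which admits fatty acids to mitochondria, fell from 202 to 67.1 CPM (-1.59) and Acss2 from 177 to 42.9 CPM (-2.05). Without wild-type ex vivo replicate 2 the number of fatty acid genes that rose was 6.

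Most glycolytic genes rose. Of 23 tested, 15 rose and 2 fell (median 1.21). Aldoa, a mid-pathway enzyme, lay at 334 and 341 CPM ex vivo and 1002 and 1144 CPM in vitro (log2 change 1.67 with SE 0.127, edgeR adjusted p = 1.31e-05). Hk2, the inducible hexokinase, lay at 2.52 and 2.37 CPM ex vivo and 36.1 and 65.8 CPM in vitro (log2 change 4.38 with SE 0.310, edgeR adjusted p = 8.70e-06), and Ldha rose from 384 to 1091 CPM (1.51). Slc16a3, a lactate exporter, rose from 11.2 to 102 CPM (3.19). The genes that fell were Pfkp (389 to 208 CPM, -0.90) and Pdk2 (31.8 to 7.56 CPM, -2.07), and the glucose transporter gene Slc2a1 did not pass (89.5 to 118 CPM, 0.40, SE 0.224, adjusted p = 0.152), though it did without wild-type in vitro replicate 1 (adjusted p = 0.00167). Of 19 hypoxia-response genes 12 rose and 3 fell (median 1.09), with Ankrd37 from 0.568 to 24.7 CPM (5.42) and P4ha1 from 32.9 to 150.4 CPM (2.19).

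Respiratory chain genes of the nucleus rose and those of the mitochondrial genome fell. Of 39 respiratory chain genes of the nucleus 30 rose and 1 fell (median 0.67), whereas of 13 protein-coding genes of the mitochondrial genome 12 fell and 1 did not pass (median -1.14). Atp5b, a subunit of ATP synthase, lay at 831 and 834 CPM ex vivo and 1369 and 1426 CPM in vitro (log2 change 0.75 with SE 0.0985, edgeR adjusted p = 2.62e-04). CYTB, of the mitochondrial genome, lay at 5197 and 4936 CPM ex vivo and 2670.3 and 2955 CPM in vitro (log2 change -0.85 with SE 0.150, edgeR adjusted p = 0.00128), and ATP6 at 329.7 and 285 and 64.7 and 77.9 CPM (-2.11, SE 0.168, adjusted p = 1.62e-05). The nuclear gene that fell was Ndufa4 (165 to 99.8 CPM, -0.72). Of the 13, 5 belong to the 50 most abundant genes. COX1 lost its call without wild-type ex vivo replicate 1 or 2 (adjusted p = 0.0749 and 0.0599) or wild-type in vitro replicate 1 (adjusted p = 0.0663).

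Of 16 Myc and polyamine genes 7 rose and 4 fell, beside 32.1% higher and 31.6% lower among all tested genes. Of 17 genes of serine and one-carbon metabolism and ATF4 targets 10 rose and 1 fell. Odc1, the first enzyme of polyamine synthesis, lay at 35.5 and 33.04 CPM ex vivo and 213 and 218 CPM in vitro (log2 change 2.65 with SE 0.138, edgeR adjusted p = 1.74e-06), and Srm rose from 13.6 to 55.8 CPM (2.03). The E-box CACGTG, bound by Myc and its partners, was not found in the window of Odc1 and was found in 3 of 16 promoters of the Myc and polyamine list, against 6.02% of all and 8.16% of those of tested genes. It was found in 1 of 39 promoters of ribosome biogenesis factors. Asns, asparagine synthetase, lay at 0.379 and 0.237 CPM ex vivo and 21.9 and 14.02 CPM in vitro (log2 change 5.86 with SE 0.384, edgeR adjusted p = 5.64e-06), and Psat1, of serine synthesis, rose from 58.3 to 176 CPM (1.59). Among amino acid transporters 6 of 16 rose and 4 fell, again near the shares of all genes. Slc7a5, the large neutral amino acid transporter, rose from 22.8 to 74.4 CPM (1.71), but its partner chain Slc3a2 fell from 156 to 109 CPM (-0.51). Of 25 pentose phosphate and nucleotide synthesis genes 17 rose and 3 fell, Ctps from 11.5 to 41.9 CPM (1.87). Of 24 mTOR and PI3 kinase genes 7 rose and 14 fell; the 7 became 1, 1, 3 and 2 without the 4 wild-type libraries in turn.

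Both tested metallothioneins rose. Mt1 lay at 0.295 and 0.395 CPM ex vivo and 101 and 132 CPM in vitro (log2 change 8.37 with SE 0.331, edgeR adjusted p = 4.91e-07). Mt2 had 1 count over both ex vivo libraries and 2722 in vitro, a ratio of 2335 (counting interval 419 to 92267). They bind zinc and copper and are induced by metals and glucocorticoids. Among the 11 other genes of the list, which regulate or transport zinc, log2 fold changes ran from -0.67 for Slc30a1 to 1.16 for Slc39a14. Ahrr, the repressor of the aryl hydrocarbon receptor, had 4 counts ex vivo and reached 133 and 133 CPM in vitro (10.59 on the log2 scale). Nqo1, a quinone reductase of the antioxidant list, rose from 0.182 to 6.80 CPM (5.18), while Hmox1, which degrades haem and is abundant in macrophages, fell from 42.8 to 3.84 CPM (-3.47).

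Interferon-stimulated genes fell more often than they rose. Of 34 tested, 8 rose and 17 fell (median -0.26). Ifit3 lay at 7.28 and 8.999 CPM ex vivo and 0.660 and 0.527 CPM in vitro (log2 change -3.77 with SE 0.270, edgeR adjusted p = 9.23e-06), and Ifi44 fell from 3.47 to 0.192 CPM (-4.14). Isg20, an exonuclease gene, rose from 1.62 to 30.1 CPM (4.20), and so did the guanylate-binding protein gene Gbp4 (96.8 to 199 CPM, 1.04). Of 18 genes of MHC class I and antigen loading 4 rose and 8 fell, or 5 without either wild-type ex vivo library. H2-K1 lay at 5022 and 5218 CPM ex vivo and 3353 and 2665 CPM in vitro (log2 change -0.77 with SE 0.131, edgeR adjusted p = 0.00108), and B2m did not pass (4942 to 5439 CPM, 0.14, SE 0.0992, adjusted p = 0.251). Class I genes are close copies, and the split among them is uncertain.

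Tnfrsf9 (4-1BB), a costimulatory receptor of the TNF family, lay at 129.98 and 133 CPM ex vivo and 1306 and 1277 CPM in vitro (log2 change 3.30 with SE 0.116, edgeR adjusted p = 3.19e-07). Tnfsf8, the ligand of CD30, rose from 2.67 to 88.2 CPM (5.04), and Fas fell from 5.01 to 1.22 CPM (-2.03). Over 18 tested ligands and receptors 8 rose and 6 fell, beside 32.1% and 31.6% of all genes. In the BCL2 family 10 of 19 rose and 5 fell, with Bcl2a1d at 2.61 to 30.4 CPM (3.54), and the number that fell was 2 without wild-type ex vivo replicate 1 or wild-type in vitro replicate 2 and 3 without wild-type ex vivo replicate 2. In TGF-beta signalling the receptor gene Tgfbr1 rose from 101 to 404 CPM (1.996) and the effector gene Smad3 fell from 586 and 566 CPM to 87.1 and 71.1 CPM (log2 change -2.86 with SE 0.229, edgeR adjusted p = 1.68e-05). Of that list 5 of 17 rose and 10 fell, and the 5 became 3 without either wild-type ex vivo library or wild-type in vitro replicate 2.

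Among the 15 largest falls several are markers of other blood cells. Vcam1, Slc40a1, Csf1r, Lyz2 and Mpeg1 mark macrophages and Igj (the joining chain of antibodies) marks plasma cells. Vcam1 had 0 counts in vitro and was at least 801-fold lower, and Slc40a1, the iron exporter, had a ratio of 3160.1 (counting interval 567 to 124864) between ex vivo and in vitro. The others beside S1pr5, Cx3cr1, Cma1 and Xist were Cdh22 (at least 719-fold lower), Nhsl2 (at least 671-fold lower), As3mt, an arsenic methyltransferase (188 to 0.104 CPM, -10.74), Cmah, which makes N-glycolylneuraminic acid (82.5 to 0.0869 CPM, -9.81), and Tmem151a (25.7 to 0.0349 CPM, a ratio of 735 (counting interval 203 to 6075)). As3mt lay at 190.1 and 186 CPM ex vivo and 0.174 and 0.0351 CPM in vitro.

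Among the 15 largest rises were the granzymes Gzmc, Gzmd, Gzme and Gzmg, both metallothioneins, Ccl1, Ahrr, Cdkn2a and Pdgfa. Scin, an actin-severing protein, lay at 0.337 and 0.592 CPM ex vivo and 243 and 299.8 CPM in vitro (log2 change 9.17 with SE 0.227, edgeR adjusted p = 6.45e-08). Cd200r2 lay at 0.379 and 0.750 CPM ex vivo and 124 and 189 CPM in vitro (8.09, SE 0.441, adjusted p = 2.17e-06). Dsc2, a desmosomal cadherin, had 1 count ex vivo and 2962 in vitro, a ratio of 2541 (counting interval 456 to 100399). The dipeptidase gene Dpep2 had 4 counts ex vivo and 1799 in vitro, and Zmat4 had 2 and 2120, a ratio of 909 (counting interval 251 to 7514).

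Per length, the ranking of the most abundant transcripts changed with culture. Ex vivo, Gzma led at 15339.7 and 15339.7 RPKM in the authors' files and Ccl5 followed at 14199.9 and 14199.9 RPKM, with COX1, B2m, CYTB and H2-K1 also among the 10 highest. In vitro, Ccl5 lay at 1331 and 1264 RPKM, and Gzmc, Gzma, Gzmb and B2m were the leading protein-coding genes, with Eef1a1 (4544 and 4544 RPKM) also among the 10 highest. A gene without a symbol (Entrez 100628626, 82 bases) and Mir682 (96 bases) also ranked among the 10 in both states, and a short length raises RPKM for few reads. COX1 and the predicted genes Gm11478 and Gm9794 completed the in vitro list.

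The wild-type culture effect was set against that of CIS-null cells. In CIS-null cells 9539 genes changed in culture (72.4%), in a comparison of libraries other than the wild-type ones. Of the 8395 wild-type calls 7669 (91.4%) were called in the same direction there, which is 80.4% of the CIS-null calls, and 25 in the opposite direction. Both comparisons took their spread from the same fit of all 8 libraries, so these calls are not independent. The difference between the culture effects, tested as an interaction, passed for 18 genes (0.137%), 15 of them wild-type calls, and 2586 genes had an unadjusted p under 0.05. The 5 sex-linked transcripts were among 7 of the 15 with opposite signs, since the CIS-null libraries carried Xist in vitro and Y-linked transcripts ex vivo (Xist 0.322 and 0.197 CPM ex vivo and 131 and 89.7 CPM in vitro). The count of 18 depended on the genes and libraries in the fit: without X- and Y-linked genes 1 gene passed, and DESeq2 called 592. It was 6 without CIS-null in vitro replicate 2 and with wild-type ex vivo replicate 2 left out, and 7, 8 and 9 without wild-type ex vivo replicate 1, CIS-null ex vivo replicate 2 and wild-type in vitro replicate 2. It was 41, 354 and 378 without wild-type in vitro replicate 1, CIS-null ex vivo replicate 1 and CIS-null in vitro replicate 1.

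Sex-linked transcripts moved with culture in opposite directions in wild-type and CIS-null cells, so genotype and sex cannot be told apart in these differences. Leaving the X- and Y-linked genes out of the fit does not change this for autosomal genes. The gene that passed without the sex-linked genes was Sdc4, which encodes the cell surface proteoglycan syndecan-4. It lay at 25.7 and 29.96 CPM ex vivo and 84.6 and 83.7 CPM in vitro in wild-type cells, and at 67.5 and 62.7 and 34.9 and 26.9 CPM in CIS-null cells. It rose by 1.60 on the log2 scale in wild-type cells and had -1.07 in CIS-null cells (difference 2.67, SE 0.192, edgeR adjusted p = 9.15e-04). This difference passed in each of the 22 alternatives that tested it. The other autosomal differences did not pass without the X- and Y-linked genes, with the replicate block or on the deposited log2 RPKM. Among them, Il18r1 fell by 1.45 in wild-type and had -2.67 in CIS-null cells (difference 1.22, SE 0.147, edgeR adjusted p = 0.0296). Cd3g had 3.31 and 5.70 (difference -2.39, SE 0.277, edgeR adjusted p = 0.0296), and Srm, spermidine synthase, had 2.03 and 3.29 (difference -1.26, SE 0.164, edgeR adjusted p = 0.0389).

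**Figure D5:**
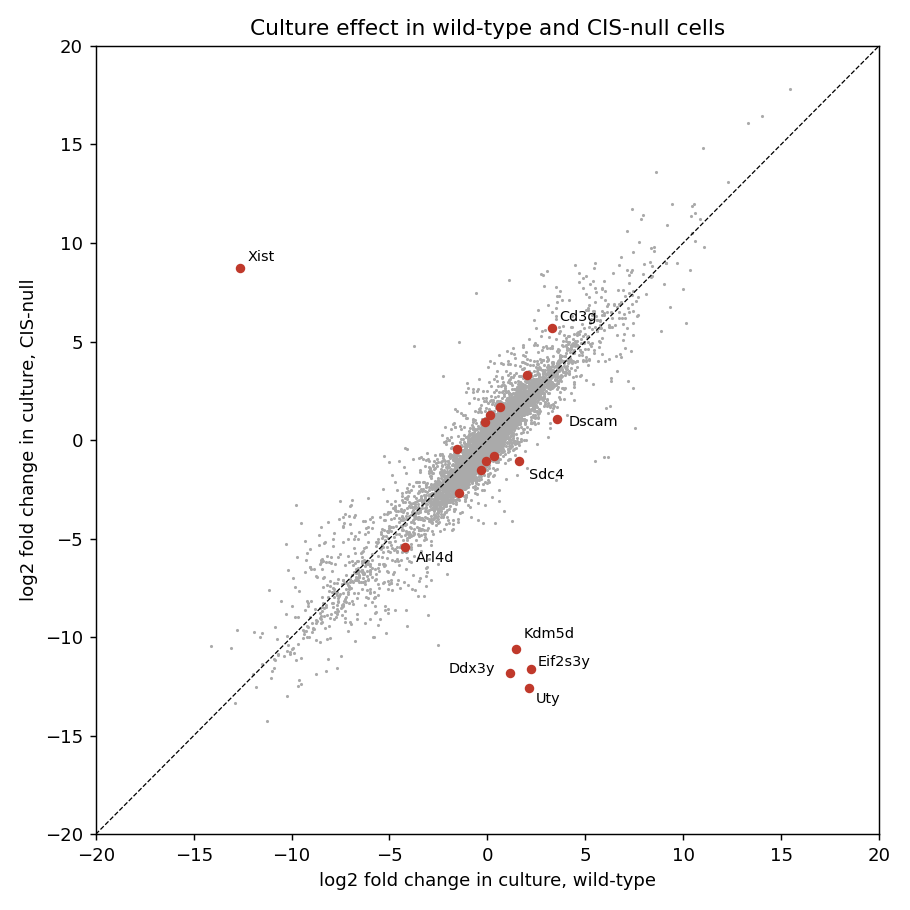
Each point is 1 tested gene, with its fitted log2 fold change in culture in wild-type cells (horizontal) and in CIS-null cells (vertical); the 18 genes whose effects differed at an adjusted p under 0.05 are red, 9 of them named, and the dashed diagonal is equality. Xist and the 4 Y-linked genes lie farthest from the diagonal.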

How the data were processed

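RNA was sequenced from NK cells of wild-type and CIS-null mice, ex vivo and in vitro, with 2 libraries a group. Per the submitters' processing notes the reads went through Subread, featureCounts and limma against GRCm38 (mm10); versions are not given in the sources used here. The deposited table holds whole-number counts per gene for all 8 libraries, which the authors did not normalize. A further 8 deposited tables hold log2 RPKM for 12372 genes, and some leading values repeat between the libraries of a state. Of 27179 genes, 565 carry no symbol in the count table and held 0.126% to 0.672% of a library's counts. The RefSeq gene table, used for chromosomes, positions and list names that the count table lacked, matched 25275 (93.0%). Gene lengths came from the count table.

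The raw counts were tested with edgeR's quasi-likelihood test (edgeR 4.0.16, R 4.3.3) after filterByExpr (minimum count 10, minimum total 15) and TMM scaling. All 8 libraries were fitted with 1 mean per group, which left 4 residual degrees of freedom. The groups did not scatter equally. Chi-square per degree of freedom between the libraries of a group was 5.96 ex vivo and 18.6 in vitro in wild-type cells. In CIS-null cells it was 34.2 ex vivo and 32.1 in vitro, so the shared spread includes their wider scatter. A gene was called at a Benjamini-Hochberg adjusted p under 0.05 over all 13184 tested genes. CPM values use the TMM-scaled library sizes, and standard errors come from the same fit. The tested genes held 99.96% to 99.98% of each library's counts. A floor of 3 counts over a group and 95% counting intervals cover counting error only.

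The genes named were Cish; the 15 genes a direction with the largest change among called genes with at least 20 CPM in the higher group and groups that did not overlap, without predicted genes and receptor segments; the 10 genes with the highest RPKM in each state; up to 12 members of each gene list by level and change; 5 sex-linked transcripts; and 8 genes a direction for the difference between genotypes. Some genes that these rules name are not reported here. The lists and these rules were chosen with earlier results of these data known. Alternatives used RLE scaling, library totals, no filter, a stricter filter (5 CPM in 2 libraries), DESeq2 1.42.0, limma-voom (limma 3.58.1), a robust fit, a replicate block, the 4 wild-type libraries alone, removal of 4 sets of genes, removal of a length trend (spline with 4 degrees of freedom), the log2 RPKM, and each library left out in turn. Promoter windows came from the RefSeq table, which held 10007 of the tested genes.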

Additional observations from a re-analysis of the deposited data

Results flagged for a closer look

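Of the 15 wild-type calls whose culture effect differed from that in CIS-null cells (edgeR adjusted p under 0.05), the 13 with at least 20 CPM in some group are given. Each difference below is the log2 fold change in wild-type cells minus that in CIS-null cells. The 5 sex-linked transcripts had the largest absolute differences. Xist, expressed from the inactive X chromosome of female cells, had a fitted difference of -21.35. The fitted differences of the Y-linked genes were 14.71 for Uty, 13.83 for Eif2s3y, 12.99 for Ddx3y and 12.06 for Kdm5d. These 5 values rest on groups at or near 0 counts and are not measured sizes, and that of Xist ran from -23.52 to -20.56 when 1 library at a time was left out. Xist lay at 0.322 and 0.197 CPM in the CIS-null ex vivo libraries and at 131 and 89.7 CPM in vitro. The libraries of the CIS-null states thus differed in sex-linked transcripts in the opposite direction to those of the wild-type states. Genotype and sex therefore cannot be told apart in any difference given here. When the X- and Y-linked genes were left out, Sdc4 alone of the other 8 genes passed.

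Sdc4, the gene of syndecan-4, differed by 2.67, rising in wild-type cells (1.60) and falling in CIS-null cells (-1.07). Il18r1, a chain of the interleukin 18 receptor, differed by 1.22 and fell less in wild-type cells (-1.45 against -2.67). Cd3g, a chain of the T cell receptor complex, differed by -2.39, rising by 3.31 in wild-type cells and by 5.70 in those without CIS. Srm, which makes spermidine, differed by -1.26 (2.03 against 3.29), and Slc19a1, a folate carrier, by -1.05 (0.64 against 1.70). Lrrfip2 differed by -1.11 (-1.57 against -0.46). The transcriptional regulators Zhx2 and Tcf4 differed by 1.20 and 1.13, and their wild-type changes of -0.31 and 0.34 did not pass when any 1 of the 4 wild-type libraries was left out (adjusted p 0.0843 to 0.128 for Zhx2 and 0.0735 to 0.111 for Tcf4).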

How the results depend on the processing

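The 8395 calls in wild-type culture came to 6411 to 8866 when 1 library at a time was left out, and to 6908 (stricter filter) to 9349 (the 4 wild-type libraries alone) under the other alternatives. Between 75.2% and 99.7% of the calls were kept in the same direction. The labels do not say whether the replicate numbers pair libraries. Deviations of same-numbered wild-type libraries correlated at -0.0145, which cannot settle this because a weak pairing could give the same value. The fit with the replicate block gave 7986 calls. The 18 genes whose culture effect differed by genotype were far less stable. They came to 75 with no low-count filter, 592 with DESeq2, 137 with the length trend removed, 6 with the replicate block, 1 without X- and Y-linked genes and 1 with limma on log2 RPKM, and to 6 to 378 when 1 library was left out; the cause was not tested, beyond the genes that the alternatives without X- and Y-linked genes and on log2 RPKM leave out. The 4 wild-type libraries alone give no difference by genotype. Gzma was the 1 named gene whose sign turned, with -0.0715 on the deposited log2 RPKM (limma adjusted p = 0.900). Eef1a1 did not pass there either (limma adjusted p = 0.128). Each had an RPKM value that repeated between the libraries of a state, so their RPKM need not follow the counts. The call of Igj was lost with limma-voom (adjusted p = 0.0891), and that of Ighm without either wild-type ex vivo library or wild-type in vitro replicate 2 (adjusted p = 0.0512 to 0.1002). Id2 passed in the fit of the 4 wild-type libraries alone (adjusted p = 0.0111). Depth limits the fitted folds of genes at or near 0 counts in 1 state, which are imprecise.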
